A study of Homo sapiens with 6 samples.

Results

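The enzymes described here build pyrimidine nucleotides and deoxynucleotides, the precursors of RNA and DNA. They are the 9 genes CAD, DHODH, UMPS, CTPS1, CTPS2, TYMS, RRM1, RRM2 and TK1, taken by symbol from the 57820 gene rows of each library. All 9 were found, 8 of them passed the expression filter and were tested among 17679 genes, and CTPS2 did not pass. RNA was sequenced from U266, a human multiple myeloma cell line derived from malignant plasma cells. The tested cells were 3 samples of U266 transduced with a lentiviral vector that drives c-MYC from the EF1A promoter (MYC), and the others were 3 samples of control U266 cells (control). All 6 were grown in RPMI-1640 with fetal bovine serum and antibiotics. The labels do not say whether the control cells carry a vector, whether either line is 1 clone, or whether the 3 samples of a group are separate cultures, so p-values measure only the spread between these samples.

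Pyrimidine synthesis starts with CAD, a large cytosolic protein that joins carbamoyl phosphate synthetase, aspartate transcarbamoylase and dihydroorotase. DHODH, on the inner mitochondrial membrane, oxidises dihydroorotate to orotate, and UMPS turns orotate into UMP. CTP synthase (CTPS1 or CTPS2) aminates UTP to CTP. Ribonucleotide reductase, made of the large subunit RRM1 and the small subunit RRM2, reduces ribonucleotides to deoxyribonucleotides, TYMS methylates dUMP to dTMP, and TK1 salvages thymidine in the cytosol. Several of these genes, RRM2, TYMS and TK1 among them, are known for high RNA in S phase, and CAD is a textbook MYC target.

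The 5 promoters below are shown for their motifs or for a contrast between members: RRM2, which was higher in MYC cells, and TK1, which was lower, both hold CCAAT, DHODH, which was not called, is the only member with an E-box in its window, and CTPS1 was abundant while its paralog CTPS2 was almost absent. Each runs 5′ to 3′ on the strand of the gene from 250 bases before to 50 bases after a RefSeq transcript start (GRCh38.p14). Capitals mark matches to CACGTG (the E-box that MYC and MAX can bind), TTTGGCGC or TTTCCCGC (E2F type) and CCAAT (NF-Y type), searched on both strands. The RRM2 window is chr2:10122489-10122788 (plus strand), the TK1 window chr17:78187003-78187302 (minus strand), the DHODH window chr16:72008494-72008793 (plus strand), the CTPS1 window chr1:40979446-40979745 (plus strand) and the CTPS2 window chrX:16712620-16712919 (minus strand).
RRM2: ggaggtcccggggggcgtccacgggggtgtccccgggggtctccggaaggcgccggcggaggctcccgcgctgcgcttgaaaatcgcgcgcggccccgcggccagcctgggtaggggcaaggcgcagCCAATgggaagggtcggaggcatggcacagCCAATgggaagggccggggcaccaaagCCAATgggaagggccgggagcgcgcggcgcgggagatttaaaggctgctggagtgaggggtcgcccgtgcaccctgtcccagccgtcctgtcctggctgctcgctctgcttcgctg
TK1: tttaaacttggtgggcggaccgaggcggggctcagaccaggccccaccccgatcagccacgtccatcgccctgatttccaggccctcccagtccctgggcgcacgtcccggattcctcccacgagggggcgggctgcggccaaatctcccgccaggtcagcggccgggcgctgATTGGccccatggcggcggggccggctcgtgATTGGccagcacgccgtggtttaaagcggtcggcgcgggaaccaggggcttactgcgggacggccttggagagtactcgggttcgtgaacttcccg
DHODH: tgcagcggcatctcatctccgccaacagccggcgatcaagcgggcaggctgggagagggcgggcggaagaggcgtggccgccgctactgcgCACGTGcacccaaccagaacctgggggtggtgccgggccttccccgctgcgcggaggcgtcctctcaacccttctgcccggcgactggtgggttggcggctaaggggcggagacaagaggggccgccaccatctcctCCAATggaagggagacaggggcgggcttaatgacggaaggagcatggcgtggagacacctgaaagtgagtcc
CTPS1: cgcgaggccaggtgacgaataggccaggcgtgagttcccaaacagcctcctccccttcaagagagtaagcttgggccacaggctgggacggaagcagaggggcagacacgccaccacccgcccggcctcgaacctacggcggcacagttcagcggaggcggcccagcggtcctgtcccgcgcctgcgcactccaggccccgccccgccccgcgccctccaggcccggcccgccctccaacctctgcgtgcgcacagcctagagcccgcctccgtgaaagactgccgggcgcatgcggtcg
CTPS2: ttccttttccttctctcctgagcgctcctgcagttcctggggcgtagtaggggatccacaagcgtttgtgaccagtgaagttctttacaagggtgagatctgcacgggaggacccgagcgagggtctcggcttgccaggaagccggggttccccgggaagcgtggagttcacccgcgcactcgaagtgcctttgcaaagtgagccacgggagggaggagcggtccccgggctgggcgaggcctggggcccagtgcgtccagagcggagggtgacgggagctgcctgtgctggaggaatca

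In these windows RRM2 held CCAAT at 123, 93 and 66 bases before the start, and TK1 held it on the opposite strand at 77 and 46 bases before the start. DHODH held CACGTG at 159 bases and CCAAT at 22 bases before the start. RefSeq gives a second window for RRM2, TK1, CTPS1 and CTPS2. The windows of RRM2 and TK1 with the most matches are the ones printed: the other RRM2 window held 1 CCAAT, at 249 bases before its start, and the other TK1 window held none of these motifs. Neither window of CTPS1 or of CTPS2 held any of them. RefSeq windows were matched for all 9 members. CCAAT was in a window of 5 of the 9 (CAD, DHODH, RRM1, RRM2 and TK1), against 39.7% of 27305 genes. CACGTG was in 1 of 9, against 8.77% of genes, and an E2F-type match in 1 of 9 (TYMS, 39 bases before the start), against 2.75%. A match is a run of letters and not a measured binding site. CCAAT stood in the promoters of RRM1 and RRM2, which were higher in MYC cells, and of TK1, which was lower.

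MYC itself had 64.7, 69.2 and 62.6 TPM (a level scaled for transcript length and library depth) in MYC cells, against 2.67, 2.62 and 2.93 TPM in control cells. Its log2 fold change was 4.60 ± 0.10 (SE; edgeR, adjusted p = 9.71e-08). Summed expected counts were 27139978 to 158667309 in the MYC libraries and 55026416 to 130576913 in the control libraries. The libraries stood apart by the GC content of the gene: among the 2053 tested genes of 58 to 62% GC the median log2 fold change was -0.73, and among the 2130 genes of 38 to 42% GC it was 0.25. MYC replicate 3 lay furthest out, with a median deviation of -0.55 (log2 CPM, counts scaled for depth but not for length) for genes of 58 to 62% GC, against -0.19 and -0.32 in MYC replicates 1 and 2 and 0.28 to 0.43 in the control libraries. Transcripts of the members average 42.9% (CTPS2) to 61.4% (TK1) GC. Results for the tested members, other genes of their pathway and S-phase genes are therefore also given with a GC offset. It removes each library's own trend of log2 CPM on GC. All 9 plasma cell and myeloma markers were above 0.1 TPM in at least 1 library, and their summed level was 3927 to 4461 TPM in MYC cells and 6947 to 7326 TPM in control cells. IGHE carried most of that difference, with 1003.4, 800.5 and 499.8 TPM in MYC cells, against 3105.8, 3372.0 and 3131.2 TPM in control cells. IGHE, SDC1, TNFRSF17, IRF4, PRDM1 and XBP1 were each called lower in MYC cells in all 25 settings of the fit, and SLAMF7 in 8. In the same list, JCHAIN was called higher in 10 settings and MZB1 in 13. With the GC offset IGHE was 1.97-fold and SDC1 1.18-fold lower, against 4.15-fold and 2.255-fold without it. MZB1 was then 2.05-fold higher (edgeR, adjusted p = 1.57e-06), and JCHAIN was not called (edgeR, adjusted p = 0.568). T and NK cell markers (7 of 7 found) summed to 15.6 to 17.1 TPM in MYC cells and 6.22 to 8.20 TPM in control cells. B cell markers (5 of 5) summed to 0.600 to 0.960 TPM in MYC cells and 0.360 to 0.510 TPM in control cells, and myeloid markers (6 of 6) to 1.59 to 1.86 TPM in MYC cells and 1.77 to 2.96 TPM in control cells. The sums of stromal markers (5 of 5) were 3.77 to 3.96 TPM in MYC cells and 4.05 to 4.43 TPM in control cells, and those of epithelial markers (5 of 5) 7.59 to 8.69 TPM in MYC cells and 4.02 to 4.78 TPM in control cells. MS4A1, CR2, FCGR1A, COL1A2, LUM and KRT19 stayed under 0.1 TPM in all 6 libraries, and the part of these markers in the results was not tested.

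In MYC cells 5 members were higher (CTPS1, RRM1, UMPS, RRM2 and TYMS), 1 was lower (TK1) and 2 of the 8 tested were not called (CAD and DHODH), at an adjusted p under 0.05 in edgeR's quasi-likelihood test. Over all tested genes 28.8% were called higher and 32.1% lower, 60.8% in all, so a call alone sets no member apart. The median log2 fold change was 0.24 over the 8 tested members and -0.02 over all tested genes. With the GC offset 6 members were higher, CAD being added, and TK1 was lower, against 29.7% higher and 28.8% lower among all genes (58.5% in all). The members' median was then 0.28. In bulk RNA, a change in the share of cells in S phase and a change of RNA per cell cannot be told apart.

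**Figure D1:**
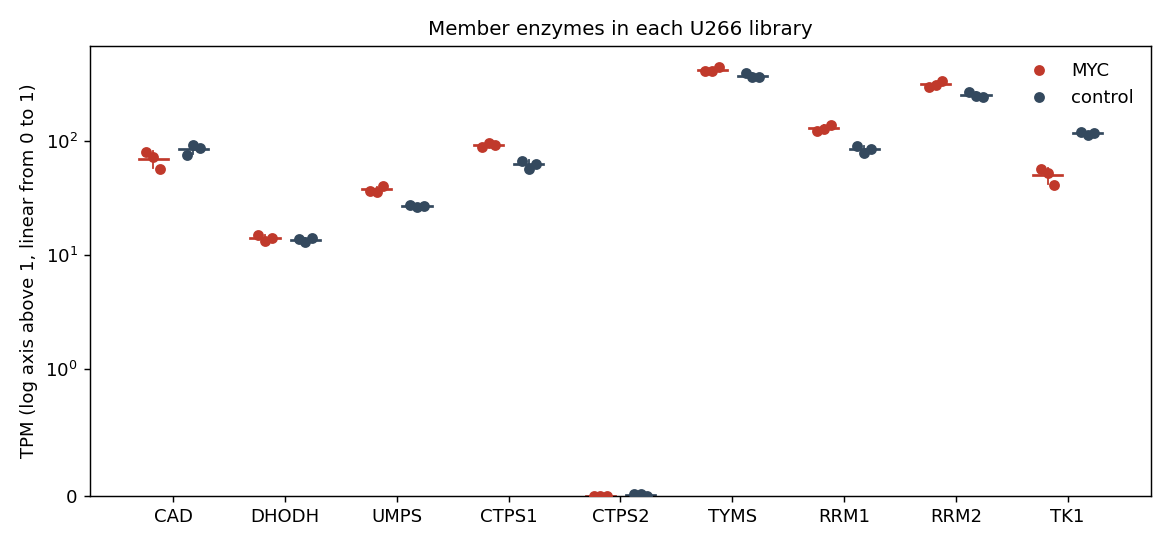
Level of each member in TPM (symmetric log axis, linear near 0) in every library, MYC cells left of control cells, with points for libraries, horizontal lines for the mean and vertical lines for the SD of 3. TK1 lies lower and CTPS1, RRM1 and UMPS lie higher in all 3 MYC libraries, and CTPS2 lies at or near 0 in all 6.

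On the TPM scale TYMS was the highest member in both groups, followed by RRM2. In MYC cells RRM1, CTPS1, CAD, TK1, UMPS, DHODH and CTPS2 followed in that order of means. No neighbours in that order overlapped among the MYC libraries, the closest being CAD (56.9 to 79.1 TPM) and TK1 (40.8 to 56.1 TPM). In control cells TK1 followed RRM2, and CAD and RRM1, whose levels overlapped there, came next, before CTPS1, UMPS, DHODH and CTPS2. The summed level of the 9 members was 1099.2, 1107.6 and 1146.5 TPM in MYC cells, against 1048.7, 984.4 and 994.2 TPM in control cells, and the groups did not overlap. On the TPM scale 59.8% of all tested genes had no overlap between the groups.

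Of the enzymes that make UMP, UMPS was higher in MYC cells, and neither CAD nor DHODH was called. UMPS (ENSG00000114491.9, chromosome 3) had 36.5, 35.7 and 39.8 TPM in MYC cells, against 27.5, 26.4 and 26.7 TPM in control cells. Every MYC library lay above every control library. In CPM its mean was 59.5 ± 1.30 in MYC cells and 41.4 ± 0.568 in control cells (SD, n = 3 each), a 1.44-fold difference (log2 0.52 ± 0.05 SE; edgeR, adjusted p = 6.81e-05). It was 1.25-fold with the GC offset (edgeR, adjusted p = 6.76e-05), and UMPS was called higher in all 25 settings of the fit.

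CAD (ENSG00000084774.9, chromosome 2) had 79.1, 72.0 and 56.9 TPM in MYC cells, against 74.8, 92.2 and 86.0 TPM in control cells. The groups overlapped, and MYC replicate 3 was the lowest of all 6. Its mean was 307.5 ± 47.6 CPM in MYC cells and 320.9 ± 20.9 CPM in control cells (SD, n = 3 each), and the log2 fold change was -0.06 ± 0.11 (SE; edgeR, adjusted p = 0.647). The direction turned with the GC offset, where the log2 fold change was 0.35 ± 0.05 (SE; edgeR, adjusted p = 0.000393). The transcripts of CAD average 57.2% GC, and the median log2 fold change of the 2371 tested genes of 54 to 58% GC was -0.31 without the offset. CAD was called higher in 8 of the 25 settings, all of them with the GC offset, and lower in 0, so its direction depends on that choice.

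DHODH (ENSG00000102967.7, chromosome 16) was the lowest of the 8 tested members on the TPM scale. It had 14.9, 13.1 and 14.1 TPM in MYC cells, against 13.8, 12.9 and 14.0 TPM in control cells, and the groups overlapped. In CPM, which is not scaled for length, it had 16.0, 15.1 and 14.6 in MYC cells, against 16.5, 17.6 and 17.3 in control cells, and all MYC libraries lay below all control libraries. In CPM the groups were without overlap, in either direction, for 67.1% of all tested genes. The log2 fold change in CPM was -0.17 ± 0.07 (SE; edgeR, adjusted p = 0.0564), and with the GC offset it was -0.06 (edgeR, adjusted p = 0.284). The gene length that RSEM averages over the isoforms it assigns was 1520, 1658 and 1606 bases in MYC cells, against 1812, 1915 and 1840 bases in control cells, without overlap. Lengths of 25.3% of all tested genes were also without overlap.

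CTPS1 was the member with the largest log2 fold change above 0, and its paralog CTPS2 was almost unread in these cells. CTPS1 (ENSG00000171793.9, chromosome 1) had 87.9, 94.4 and 90.6 TPM in MYC cells, against 66.3, 56.5 and 62.9 TPM in control cells. All MYC libraries lay above all control libraries. The mean was 146.0 ± 1.66 CPM in MYC cells and 89.4 ± 1.40 CPM in control cells (SD, n = 3 each), a 1.63-fold difference (log2 0.71 ± 0.05 SE; edgeR, adjusted p = 1.09e-05). With the GC offset the log2 fold change was 0.60 ± 0.03 (SE; edgeR, adjusted p = 1.08e-06), and the gene was called higher in all 25 settings.

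CTPS2 (ENSG00000047230.10, chromosome X) had 0 counts in each of the 3 MYC libraries, against 1, 2 and 0 counts in the control libraries. The exact Poisson 95% interval, which covers counting error only, reaches 3.69 counts for a count of 0, runs up to 5.57 counts for a count of 1 and from 0.242 to 7.22 counts for a count of 2. A difference between the groups was not detectable with so few counts. Where CTPS2 had 0 counts, a floor of 3 counts per library put the level of CTPS1 on the TPM scale at least 1485-, 9167- and 2868-fold above that of CTPS2 in MYC replicates 1 to 3, and at least 4938-fold above it in control replicate 3. CTPS1 itself had 3888, 22418 and 7980 counts in MYC cells and 5043, 6805 and 11824 counts in control cells.

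Of the protein-coding genes beside CTPS2 on chromosome X, S100G, MAGEB17 and GRPR were also low, and SYAP1, TXLNG, RBBP7 and AP1S2 were not. Their order is that of gene starts in GENCODE 29, and whether CTPS2 overlaps any of them was not checked. GRPR and SYAP1 are each 2 places from CTPS2 in that order, and distances in bases were not computed. Whether these levels bear on that of CTPS2 was not tested. S100G, next on one side by gene start, was at 0 in all 6 libraries. MAGEB17, next on the other side, had 1.32, 1.13 and 1.05 CPM in MYC cells, against 1.04, 1.09 and 1.20 CPM in control cells, and GRPR beyond it had 0.454, 0.418 and 0.276 CPM in MYC cells, against 0.108, 0.168 and 0.227 CPM in control cells. SYAP1, 2 places away, had 34.5, 35.1 and 33.4 CPM in MYC cells, against 32.8, 30.6 and 30.4 CPM in control cells, and was not called (edgeR, adjusted p = 0.0797). TXLNG, the next gene, had 82.3, 83.6 and 82.5 CPM in MYC cells, against 55.5, 48.1 and 51.3 CPM in control cells (edgeR, adjusted p = 4.68e-05). RBBP7, a histone chaperone subunit, had 209.1, 209.1 and 215.1 CPM in MYC cells, against 197.9, 177.2 and 184.7 CPM in control cells. Those 3 genes were read above 30 CPM in all 6 libraries. On the side of MAGEB17, AP1S2, 3 places away, had 65.6, 71.4 and 75.1 CPM in MYC cells, against 47.6, 40.8 and 40.5 CPM in control cells.

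**Figure D2:**
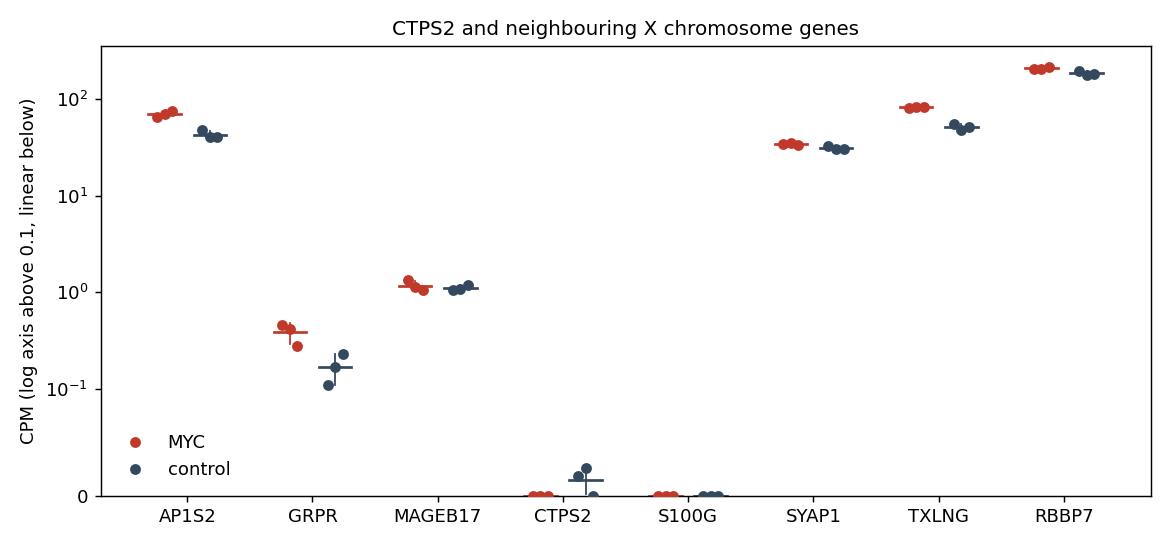
CPM of CTPS2 and of protein-coding genes beside it on chromosome X, in order of gene start, on an axis that is logarithmic above 0.1, for MYC libraries (left) and control libraries, with lines for mean and SD. SYAP1, TXLNG and RBBP7 lie above 30 CPM in all 6 libraries, MAGEB17 lies near 1 CPM, GRPR below it, and CTPS2 and S100G at or near 0.

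Both subunits of ribonucleotide reductase were higher in MYC cells, RRM1 by 1.52-fold and RRM2 by 1.26-fold. RRM1 (ENSG00000167325.10, chromosome 11) had 120.4, 125.3 and 137.1 TPM in MYC cells, against 89.4, 77.8 and 84.4 TPM in control cells, without overlap. In CPM its mean was 223.7 ± 1.39 in MYC cells and 147.2 ± 7.77 in control cells (SD, n = 3 each), a 1.52-fold difference (log2 0.60 ± 0.06 SE; edgeR, adjusted p = 4.36e-05). The difference was 1.32-fold with the GC offset (edgeR, adjusted p = 2.35e-05).

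RRM2 (ENSG00000171848.9, chromosome 2), the subunit that limits reductase activity through the cell cycle, had 295.9, 306.2 and 329.4 TPM in MYC cells, against 266.3, 247.2 and 242.7 TPM in control cells. The lowest MYC library lay above the highest control library. RRM2 averaged 565.3 ± 13.6 CPM in MYC cells and 449.5 ± 30.7 CPM in control cells (SD, n = 3 each), a 1.26-fold difference (edgeR, adjusted p = 0.0023). After the GC offset it was 1.18-fold (edgeR, adjusted p = 0.00494), and both RRM1 and RRM2 were called higher in all 25 settings. The pseudogenes RRM2P3 and RRM2P2, with which RSEM may share reads of RRM2, were at most 0.21 and 0.09 TPM.

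RRM2B, the small subunit used outside S phase and in DNA repair, had a mean of 26.3 ± 0.817 CPM in MYC cells and 26.7 ± 2.53 CPM in control cells (SD, n = 3 each) and was not called (log2 fold change -0.02; edgeR, adjusted p = 0.867). It was called lower with the GC offset (log2 -0.23; edgeR, adjusted p = 0.00298). The TPM ratio of RRM2 to RRM2B was 34.9, 37.7 and 35.2 in MYC cells, against 25.9, 28.6 and 25.9 in control cells. The ratio of RRM2 to RRM1 was 2.46, 2.44 and 2.40 in MYC cells, against 2.98, 3.18 and 2.88 in control cells. Neither ratio overlapped between groups, RRM2 over RRM2B being higher and RRM2 over RRM1 lower in MYC cells. Each had an exact two-sided permutation p of 0.1, the smallest that 3 against 3 samples allow, and 0.125 after Benjamini-Hochberg adjustment over the 5 ratios tested.

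The enzymes that supply thymidylate moved apart: the level of TYMS was slightly higher in MYC cells and that of TK1 was lower. TYMS (ENSG00000176890.11, chromosome 18) had 408.3, 408.9 and 437.9 TPM in MYC cells, against 392.8, 358.5 and 360.6 TPM in control cells, without overlap. In CPM its mean was 408.6 ± 9.02 in MYC cells and 366.4 ± 10.7 in control cells (SD, n = 3 each), a log2 fold change of 0.16 ± 0.05 (SE; edgeR, adjusted p = 0.0311). The call held in 16 of the 25 settings. It was lost, at an adjusted p in edgeR of 0.101, 0.0672, 0.0522, 0.0675 and 0.157, when MYC replicate 1, MYC replicate 2, control replicate 1, control replicate 2 or control replicate 3 was left out, and at 0.3 without the expression filter. TYMS overlaps ENOSF1 and TYMSOS on the opposite strand and the libraries do not mark strand, so reads from the overlapping stretches cannot be told apart by strand. ENOSF1 had 49.6, 55.2 and 70.0 TPM in MYC cells, against 57.0, 60.0 and 62.6 TPM in control cells, and was not called (edgeR, adjusted p = 0.711).

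TK1 (ENSG00000167900.7, chromosome 17) had 56.1, 52.0 and 40.8 TPM in MYC cells, against 117.8, 112.8 and 117.0 TPM in control cells. The highest MYC library lay far below the lowest control library, and MYC replicate 3 was the lowest. TK1 averaged 51.3 ± 12.7 CPM in MYC cells and 117.7 ± 2.92 CPM in control cells (SD, n = 3 each), 2.30-fold lower in MYC cells (log2 -1.20 ± 0.16 SE; edgeR, adjusted p = 0.000243). After the GC offset TK1 was 1.22-fold lower (log2 -0.29 ± 0.07 SE; edgeR, adjusted p = 0.00793). TK1 transcripts average 61.4% GC, the highest of the members, and the median log2 fold change of tested genes of 58 to 62% GC was -0.73. TK1 was called lower in all 25 settings, but the size of the difference depends on the offset.

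**Figure D3:**
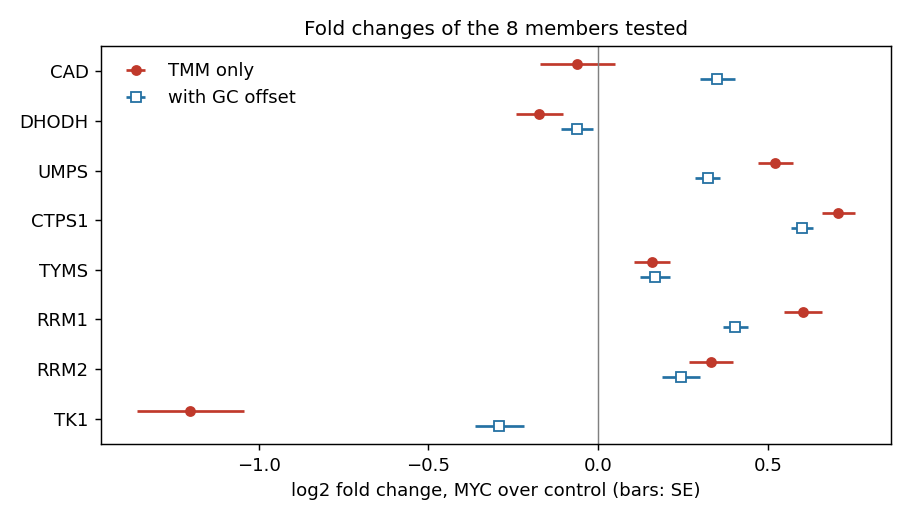
Log2 fold change of MYC over control for the 8 tested members, without and with the GC offset, with SE as bars. CTPS1, RRM1, UMPS, RRM2 and TYMS lie above 0 in both fits, TK1 lies below 0 in both and nearer to 0 with the offset, and CAD lies at -0.06 without and 0.35 with it.

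**Figure D4:**
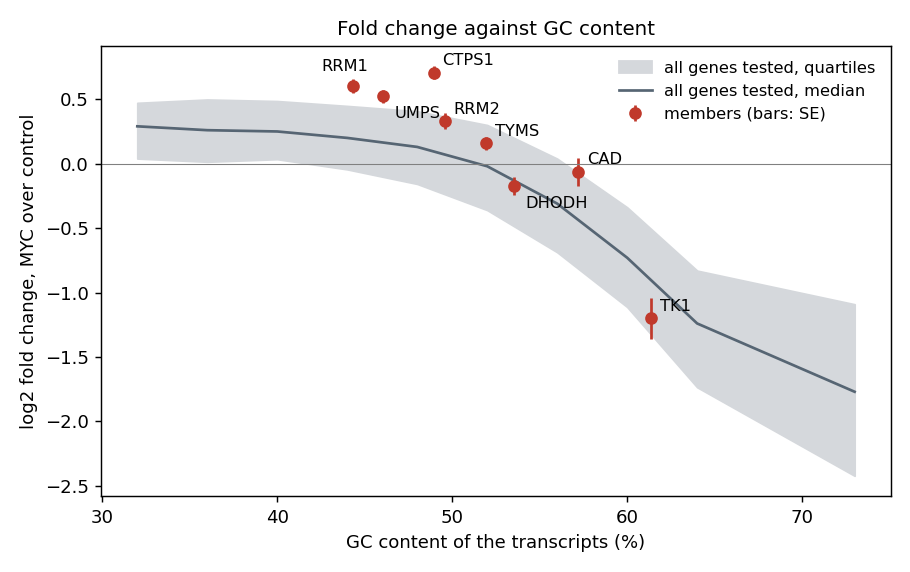
Median log2 fold change of tested genes in bins of transcript GC content (percent, line, with the quartiles shaded), and the members at their own GC content with SE as bars. The median runs from 0.25 at 38 to 42% GC to -1.77 at 66 to 80% GC, and CAD and TK1 are the members of highest GC content.

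TK2, the mitochondrial thymidine kinase, was also lower, with a mean of 34.2 ± 2.38 CPM in MYC cells and 54.3 ± 0.888 CPM in control cells (SD, n = 3 each), 1.59-fold lower (edgeR, adjusted p = 5.93e-05). With the GC offset TK2 was 1.65-fold lower (edgeR, adjusted p = 2.53e-06), more than the 1.22-fold of TK1. The TPM ratio of TK1 to TK2 was 3.05, 2.73 and 1.98 in MYC cells, against 4.50, 4.23 and 4.23 in control cells (exact two-sided permutation p = 0.1, adjusted 0.125). It was lower in every MYC library than in any control library. The ratio of UMPS to CAD was 0.461, 0.495 and 0.700 in MYC cells, against 0.367, 0.287 and 0.310 in control cells (exact two-sided permutation p = 0.1, adjusted 0.125). That ratio was higher in every MYC library. In TPM the log2 differences were -0.76 for TK1 over TK2 and 0.76 for UMPS over CAD. With the GC offset they were 0.43 and -0.03, so neither has a direction here. Those offset values come from CPM divided by the gene's mean effective length, so the measure changed along with the offset.

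Among 40 other genes of pyrimidine and deoxynucleotide metabolism, 37 were tested, of which 13 were higher, 12 lower and 12 not called, with a median log2 fold change of 0.09. After the GC offset 16 were higher, 9 lower and 12 not called. Over all tested genes 28.8% were higher and 32.1% lower without the offset, and 29.7% and 28.8% with it. Of the 37, 10 were called higher in both fits and 6 lower in both. Another 2 genes, TYMP and ITPA (an inosine triphosphatase), were called lower without the offset and higher with it. The kinases of nucleoside mono- and diphosphates did not move one way. CMPK1, which phosphorylates UMP and CMP, was 1.41-fold higher (edgeR, adjusted p = 0.00123), and 1.23-fold higher with the offset. NME1, a nucleoside diphosphate kinase, had 395.5 ± 33.0 CPM in MYC cells and 243.5 ± 16.6 CPM in control cells (SD, n = 3 each). NME1 was 1.62-fold higher (edgeR, adjusted p = 0.000114), and 1.51-fold higher with the offset. It shares sequence with NME2, so its value is uncertain. NME3 and NME4, low genes of the same family, were 12.2- and 3.83-fold lower, and 3.56- and 1.86-fold lower with the offset. NME3 had only 3, 26 and 4 counts in MYC cells, against 107, 134 and 181 counts in control cells, and its log2 fold change moved to -4.22 without MYC replicate 2, against -3.61 with all libraries. DTYMK, which phosphorylates dTMP, was 1.64-fold lower (edgeR, adjusted p = 0.000981), with 29.3 ± 5.44 CPM in MYC cells and 47.9 ± 2.08 CPM in control cells. After the offset it was 1.38-fold lower.

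Salvage and breakdown genes also differed in both directions. DCK, which phosphorylates deoxycytidine, was 1.57-fold higher (edgeR, adjusted p = 0.000157) and DCTD, which deaminates dCMP to dUMP, 1.16-fold higher (edgeR, adjusted p = 0.00727). With the offset DCK was 1.32-fold and DCTD 1.25-fold higher. DUT, which hydrolyses dUTP, was 1.31-fold higher (edgeR, adjusted p = 0.00528) and 1.15-fold higher with the offset, and was called in 20 of the 25 settings. UPP1, the uridine phosphorylase, was 2.43-fold lower (edgeR, adjusted p = 4.58e-06), and 1.63-fold lower with the GC offset. UCK1, a uridine-cytidine kinase, was 1.76-fold lower (edgeR, adjusted p = 0.000125), and 1.20-fold lower with the offset. TYMP, the thymidine phosphorylase, was 1.91-fold lower without the offset (edgeR, adjusted p = 0.000541) and 2.01-fold higher with it (edgeR, adjusted p = 0.00171), so it has no direction here. MTHFD1, a folate enzyme, was 1.48-fold higher (edgeR, adjusted p = 3.34e-05), and TXN, the thioredoxin that can reduce ribonucleotide reductase, was higher too, with 170.4 CPM in MYC cells and 106.9 CPM in control cells (edgeR, adjusted p = 5.58e-05). With the offset MTHFD1 and TXN were each 1.34-fold higher. SAMHD1, which degrades deoxynucleotides, was 1.30-fold higher (edgeR, adjusted p = 0.000722) and 1.11-fold higher with the offset, and was called in 20 of the 25 settings.

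**Figure D5:**
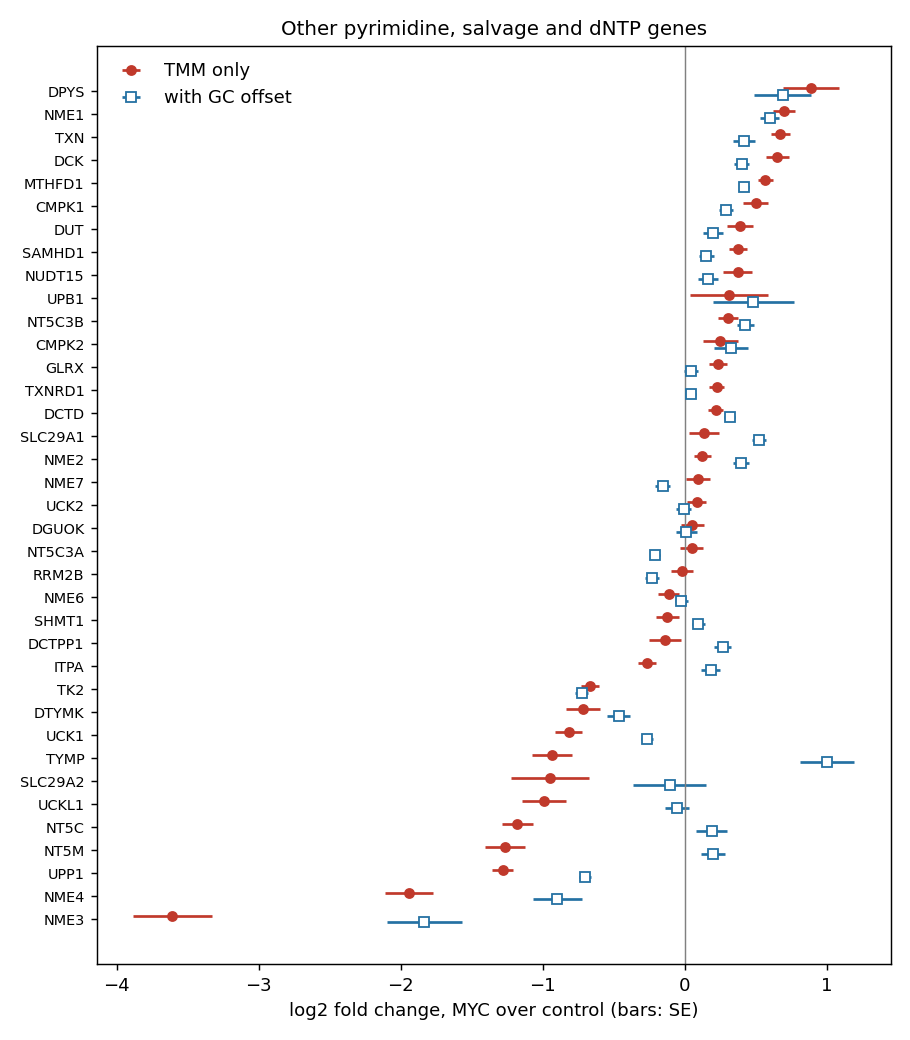
Log2 fold change of MYC over control for the tested genes of the pathway list, without (TMM only) and with the GC offset, with SE as bars. Genes lie on both sides of 0 in both fits, 13 called higher and 12 lower without the offset, and 16 higher and 9 lower with it.

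Of 36 further genes on a list for S phase and proliferation (called S-phase genes here), 35 were tested. Of these, 19 were higher, 7 lower and 9 not called in MYC cells, with a median log2 fold change of 0.16. Over all tested genes 28.8% were higher and 32.1% lower. With the GC offset 20 of the S-phase genes were higher, 6 lower and 9 not called, against 29.7% higher and 28.8% lower among all genes. The 3 S-phase genes with the smallest adjusted p were MCM4, a subunit of the replicative helicase, TOP2A, a topoisomerase, and CLSPN, a replication checkpoint adaptor. They were 1.46-, 1.89- and 1.61-fold higher (edgeR, adjusted p = 3.69e-05, 3.9e-05 and 6.65e-05), and 1.41-, 1.59- and 1.39-fold higher with the GC offset. TK1, itself a gene of S phase, was lower in both fits, with a log2 fold change of -1.20 without the GC offset and -0.29 with it. It was not alone in this: POLD1, MCM5 and E2F2 of the list were also called lower in both fits. Their log2 fold changes were -1.63, -0.89 and -0.38 without the offset and -0.27, -0.45 and -0.28 with it.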

How the data were processed

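Poly-A RNA of 6 samples of the U266 line was sequenced with NEBNext Ultra libraries, per the labels' protocols, a kit that does not mark strand. The submitters' processing notes name cutadapt, TopHat2 and GRCh37. Tool versions and the annotation were not given in the sources used here. The tables are RSEM output per gene, and per the file headers each holds an expected count, a TPM value and lengths in bases. The deposited expected counts, which share reads between similar genes, were rounded. The members and lists were chosen with earlier results of these data known.

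Counts were tested by the quasi-likelihood F test of edgeR 4.0.16 (R 4.3.3), after its default filter on low counts and with TMM factors and the group as the sole term. Calls were made at a Benjamini-Hochberg adjusted p under 0.05 over 17679 genes, and each SE follows from F. CPM values use TMM factors. Of all gene rows, 51996 had a symbol and carried 98.3% of counts. Totals spanned 5.85-fold. The GC offset used a loess trend (span 0.4) on the mean GC content of transcripts matched by identifier to GENCODE 29, available for 97.3% of tested genes. Alternatives used DESeq2 1.42.0 and limma 3.58.1 (log2 of the deposited TPM plus 1 or 0.1). In a simulation (17679 genes, 3 against 3), edgeR found 74.6% of the 1.5-fold changes. It found 89.6% of the 2-fold changes and 100% of the 4-fold changes, with 14 false among 190 calls. The simulation changed only 67, 67 and 66 genes by 1.5-, 2- and 4-fold and held no GC trend. In the data 60.8% of tested genes were called and such a trend was present, so these rates do not carry over to the comparison itself. Replicates of a group differed by more than sampling noise (7.78 to 36.6 in chi-square divided by its degrees of freedom), so each counted as 1 sample. The labels name no molecular identifiers, so intervals and floors cover counting error only. Named genes are the members, MYC, genes of the pathway list, the 3 S-phase genes with the smallest adjusted p among those called, and the 5 genes most like the members. Genes overlapping the members, pseudogenes and neighbours of CTPS2 are named for their position or sequence, and were added once the data were known. POLD1, MCM5 and E2F2 are named as S-phase genes called lower in both fits, also once the data were known. A further gene of the pathway list, and the ratio that used it among the 5 ratios tested, are not reported here.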

Additional observations from a re-analysis of the deposited data

How the results depend on the processing

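Over 25 settings of the fit, CTPS1, RRM1, RRM2 and UMPS were called higher and TK1 lower in each. DHODH joined TK1, making 2 members lower, with total counts only, limma-voom, a mean CPM of at least 5, and in the leave-one-out settings without MYC replicate 1 or control replicate 1; leave-one-out gave 1 to 2. With a mean CPM of at least 5, fewer genes are tested: 3694 of all genes and 7 of the pathway list were lower, against 5671 and 12. The log2 fold change of DHODH was 0.04, 0.05 and 0.08 with log2(TPM + 1), log2(TPM + 0.1) and an effective length offset; the cause was not tested. That of CAD was 0.35 with the GC offset and with replicate block plus GC offset, 0.32, 0.33, 0.34, 0.35 or 0.41 when a library was also left out, and -0.16 to 0.06 in the other leave-one-out fits, the upper value without MYC replicate 3. That of TYMP was 1.01 in both such fits and 0.73, 0.94, 1.00, 1.03, 1.06 or 1.20 with a library left out. That of ITPA was 0.18 with the GC offset, 0.19 with the block added, and 0.12, 0.13, 0.16, 0.21, 0.22 or 0.23 with a library left out. RRM2B was at 0.00 with RLE factors and DESeq2, and ran over -0.10 to 0.03 in the leave-one-out fits, at 0.00 without MYC replicate 1 and 0.03 without control replicate 1. Log2 differences of ratios after the GC offset, from CPM per mean effective length, were 0.43 (TK1 over TK2) and -0.03 (UMPS over CAD). Deviations of same-numbered samples correlated at -0.05, 0.08 and 0.11, and those of differently numbered samples at -0.16 to 0.1. With 3 samples per group, values this close to each other cannot decide whether the samples were paired. The replicate block called 4649 genes higher and 5380 lower, against 5085 and 5671, and TYMS lost its call (edgeR, adjusted p = 0.0702). TYMS also lost it with the GC offset without control replicate 2 (0.0606) or 3 (0.084). DUT lost its call in 5 settings and SAMHD1 in 5, all with the GC offset and 1 library left out or the block (adjusted p up to 0.177 and 0.134). The motif members were the same in the 250 bases before the start. Protein identity between CTPS1 and CTPS2, and a test of their ratio, were not run. Among the members, CTPS2 alone had too few counts to pass the filter, also in the deepest libraries.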

Other observations

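The 8 tested members had a mean log2 CPM deviation of 0.123, 0.069 and -0.032 in MYC replicates 1 to 3, against -0.041, -0.050 and -0.069 in control replicates 1 to 3, a mean over genes that moved in different directions. The 5 genes closest to it over the 6 libraries were REPS1, ATP6V1E1, ILRUN, APLP2 and MAP7, with root mean square differences of 0.012, 0.013, 0.015, 0.017 and 0.017 on the log2 scale.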
